A study of Rattus norvegicus with 18 samples.

Results

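The question here was whether chronic stress changed gene expression in the rat amygdala by more or by less than in the hippocampus. For each probe set the measure was the stress effect in amygdala minus the stress effect in hippocampus, that is, a difference between a pair of differences on the log2 scale, called the regional difference below. A positive value means that stress arrays stood higher against handled arrays in the amygdala than in the hippocampus. It was taken from 12 of the 18 arrays of the study, for 31042 probe sets that are not array controls, of which 18625 were bright enough to be tested.

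The 4 groups were the amygdala of rats under chronic immobilization stress, the amygdala of handled rats, the hippocampus of stressed rats and the hippocampus of handled rats, with 3 arrays each. The other 6 arrays, from the cortex under both treatments, entered the shared estimate of the spread. The labels give neither strain, age, sex nor the schedules of stress and handling, and they leave unsaid whether an array stands for 1 animal, a pool or a repeat hybridisation. The spread behind each p-value may thus be technical only. Arrays of different regions were treated as independent although they may share animals.

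One label field named the amygdala for every array, and region was taken from the titles and descriptions. In the handled arrays, all 11 tested marker genes of amygdala neurons were higher in amygdala than in hippocampus, against 15.7% of the 10256 genes tested. Of 11 tested hippocampal field markers, 9 were lower in amygdala and 2 higher, where 14% of all genes were lower. Array medians lay between 49.1 and 56.4 intensity units. The 3′ minus 5′ difference of the hexokinase control probe sets, a sign of how complete the labelled RNA is, averaged 1.23 in stress and 0.828 in handled amygdala, and 1.17 in stress and 1.02 in handled hippocampus (log2). The probe sets of the dap control transcripts were 0.63 lower in stress than in handled amygdala and 0.0021 higher in stress than in handled hippocampus (log2).

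By way of background, repeated immobilization of rodents activates the hypothalamic-pituitary-adrenal axis, and the corticosterone it releases acts through the mineralocorticoid and glucocorticoid receptors that both regions carry. The amygdala and the hippocampus are known for opposite structural responses to such stress: dendrites and spines of principal neurons tend to grow in the basolateral amygdala and to retract in hippocampal field CA3. In bulk tissue a change in a transcript can reflect fewer cells of a type or less RNA per cell, and these cannot be told apart.

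Few probe sets separated the regional responses. The regional difference passed an adjusted p of 0.05 for 9 probe sets (limma with Benjamini-Hochberg adjustment over all probe sets tested), which is 0.0483% of those tested. There were 5 positive ones (0.0268%), namely Gh1, Wfs1, Scn4b and the unnamed probe sets 1368839_at and 1376734_at, and 4 negative ones (0.0215%), namely Ttr, Ahi1, Lsamp and Sv2b. After median centring of each array the split was 3 positive and 12 negative. By comparison, the stress effect itself passed for 447 probe sets in amygdala (2.4%) and 67 in hippocampus (0.36%). Without adjustment, 1502 regional differences had a p under 0.05 (8.06%), 751 in each direction (4.03% each).

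The precision of 3 arrays per group limits what could be found. The median standard error of the regional difference was 0.20 on the log2 scale, against 0.14 for the stress effect of 1 region. The smallest regional difference that passed was 0.57 in size. A size of at least 1 was reached by 69 probe sets, and 3 of these passed.

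**Figure D1:**
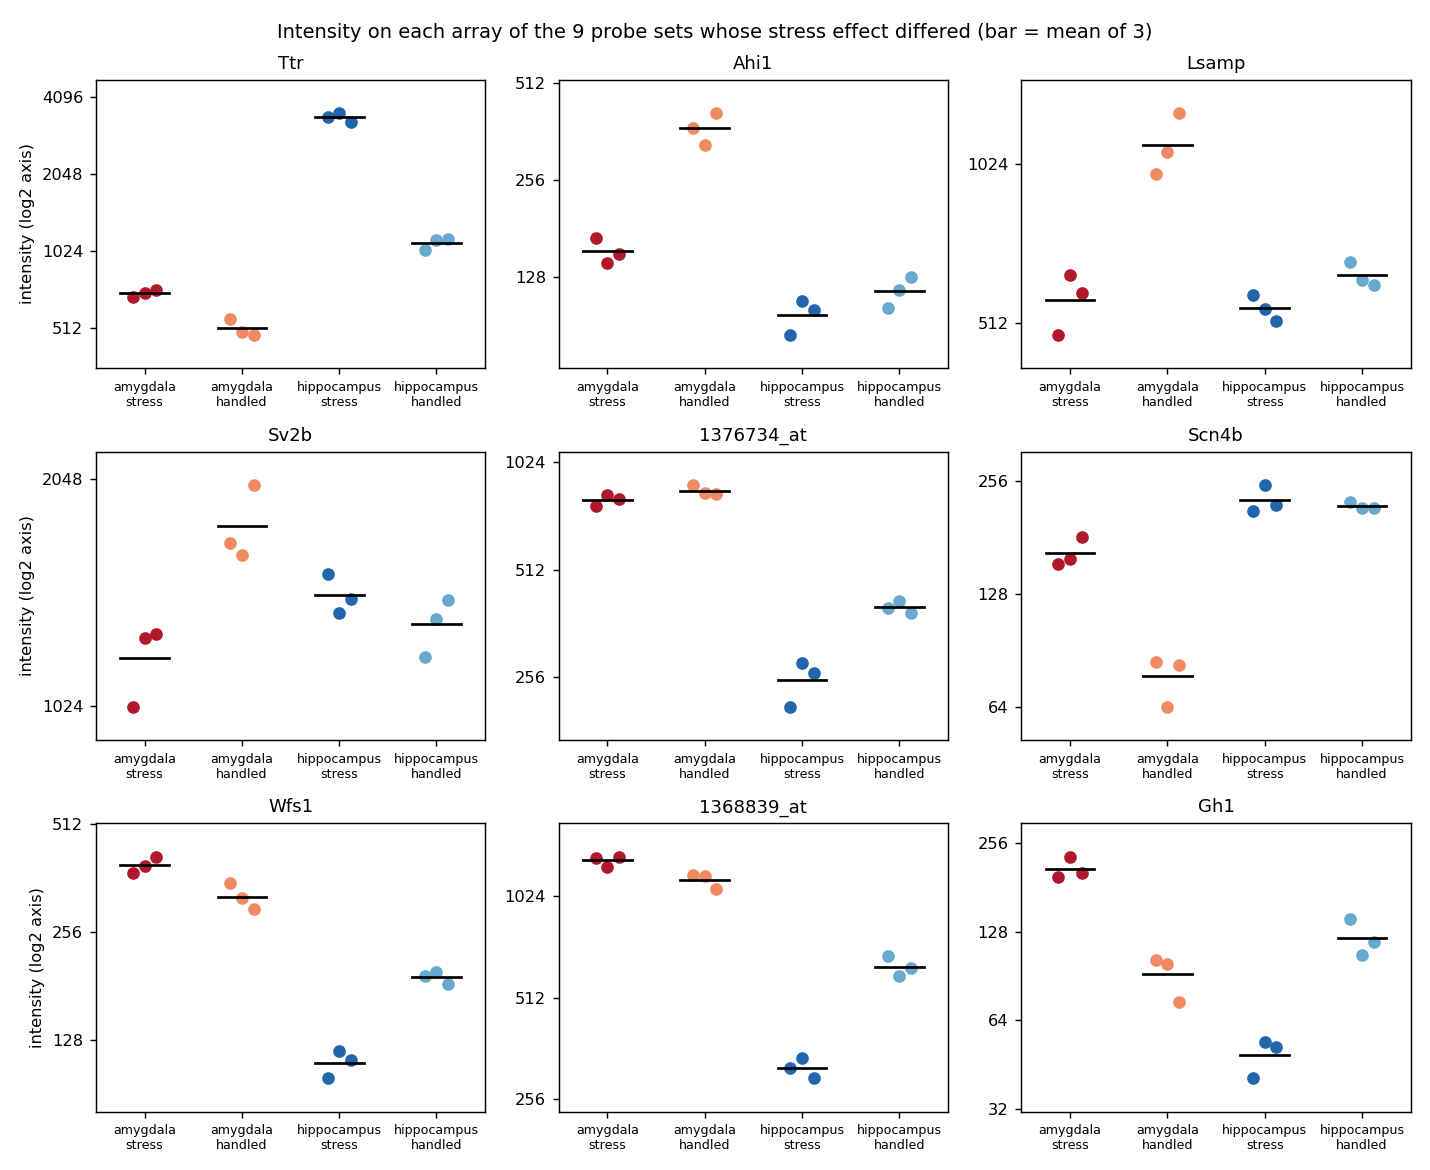
Intensity (log2 axis, arbitrary units) of the 9 probe sets whose regional difference passed, on each of the 12 arrays, with a bar at the mean of the 3 arrays of a group. In Gh1, Wfs1 and 1368839_at the stress arrays lie above the handled arrays in amygdala and below them in hippocampus.

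In 3 of the probe sets whose regional difference passed, the stress and handled arrays were separated in opposite directions in amygdala and hippocampus. How often such a separation occurred among all probe sets tested was not counted. Selection by the regional difference on the same arrays favours it, so it is a description and not a further result. Gh1, which encodes growth hormone, a hormone made chiefly by the anterior pituitary and at low levels in the brain, lies on rat chromosome 10 from 91727883 to 91729860 (GRCr8). Its intensity was 196, 230 and 202 on the stress arrays and 103, 99.1 and 73.6 on the handled arrays of the amygdala. In the hippocampus it was 40.6, 54.0 and 52.0 on the stress arrays and 141, 106 and 118 on the handled arrays.

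The Gh1 groups did not overlap in either region. The stress effect was 1.07 ± 0.17 in amygdala (adjusted p = 0.000804) and -1.09 ± 0.17 in hippocampus (adjusted p = 0.00211; log2 ± SE, limma). The regional difference was 2.16 ± 0.24 (adjusted p = 6.82e-05), the largest in size among the 9. Gh1 was the single probe set of the 18625 that passed in both regions with opposite signs, while its stress effect in cortex was -0.21 ± 0.17.

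Most of the 10 listed genes of pituitary hormones and secretory cells were too dim to be tested. The 3 that were tested were Gh1, Lhb and Chga, and their median regional difference was -0.0074, with 1 above 0, Gh1. Lhb read 53.3 to 85.6 on stress and 39.85 to 51.7 on handled amygdala arrays, with no overlap. In hippocampus Lhb read 20.7 to 63.1 on stress and 9.06 to 58.9 on handled arrays, with overlap. Chga, which encodes chromogranin A, a secretory granule protein also made by neurons, averaged 441 in stress and 486 in handled amygdala and 352 in stress and 368 in handled hippocampus. Prl and Cga are named here after their values were seen. Prl, which encodes the pituitary hormone prolactin, was untested and read 66.3 to 83.5 on the stress arrays and 5.10 to 41.9 on the handled arrays of the amygdala, with no overlap, and 5.88 to 45.9 on the stress arrays and 32.2 to 49.8 on the handled arrays of the hippocampus, with overlap. Cga, the common subunit of the pituitary glycoprotein hormones and also untested, read 29.7 to 48.7 on stress and 4.89 to 19.6 on handled amygdala arrays, and 20.4 to 32.1 on stress and 18.4 to 27.1 on handled hippocampus arrays. Across the 11 probe sets of the 8 listed genes other than Gh1 and Chga, values on the 12 arrays ran from 0.525 to 85.6, and the 2 probe sets of Pou1f1, a transcription factor of growth hormone cells, stayed at 21.6 or less. The other untested probe sets went both ways in amygdala. Stress and handled means were 33.1 and 32.0, and 10.6 and 14.0, for Fshb. They were 25.25 and 24.9, and 29.1 and 37.2, for Ghrhr. For Pou1f1 they were 7.07 and 2.24, and 2.22 and 4.58. Tshb averaged 26.1 and 18.6, and Pomc 11.5 and 4.57. The part of these pituitary genes in the Gh1 result was not tested.

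Of the 14 genes of the growth hormone axis that were tested, Gh1 included, no other had a regional difference that passed, and their median was 0.0017, against 0.015 over all genes.

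Wfs1, which encodes wolframin, a protein of the endoplasmic reticulum membrane and a marker of pyramidal neurons in hippocampal field CA1, lies on chromosome 14 from 78035205 to 78059718. On these arrays Wfs1 was not particular to hippocampus, since handled means were 321 in amygdala, 192 in hippocampus and 285 in cortex. It was 1 of the 2 field markers higher in handled amygdala than in handled hippocampus, by 0.69 ± 0.10 (adjusted p = 5.47e-06, limma). Its intensity was 373, 390 and 414 on stress and 350, 317 and 296 on handled amygdala arrays. The hippocampus gave 100, 120 and 113 on stress and 194, 198 and 184 on handled arrays. The groups were separate in both regions, with a small gap in amygdala and a wide one in hippocampus. The stress effect was 0.28 ± 0.10 in amygdala, which did not pass alone (adjusted p = 0.156, limma), and -0.71 ± 0.10 in hippocampus (adjusted p = 0.000325, limma). The regional difference was 0.99 ± 0.14 (adjusted p = 0.00142, limma), and the stress effect in cortex was 0.00044 ± 0.10.

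The probe set 1368839_at, to which the annotation gives no gene, had the smallest adjusted p of all. It read 1333, 1249 and 1343 on stress and 1183, 1176 and 1078 on handled amygdala arrays. In hippocampus the stress arrays gave 316, 340 and 296 and the handled arrays 681, 595 and 627. The stress effect was 0.19 ± 0.07 in amygdala (adjusted p = 0.166) and -0.96 ± 0.07 in hippocampus (adjusted p = 1.58e-08), a regional difference of 1.15 ± 0.09 (adjusted p = 4.29e-07, limma).

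The other unnamed probe set, 1376734_at, had stress arrays below handled arrays in both regions. It read 773, 830 and 807 on stress and 884, 840 and 831 on handled amygdala arrays, against 212, 281 and 262 on stress and 401, 418 and 387 on handled hippocampus arrays. The separation in amygdala was narrow, and the effect of -0.083 ± 0.076 there did not pass (adjusted p = 0.686, limma), while that of -0.65 ± 0.08 in hippocampus did (adjusted p = 3.24e-05, limma). Its regional difference of 0.57 ± 0.11 had an adjusted p of 0.0498 (limma), just under the threshold.

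Other genes with a low intensity in the stressed hippocampus stood just short of the threshold. They are given here because of that position, after their values were seen. Pou3f1, a transcription factor of CA1 pyramidal neurons, read 31.4, 32.5 and 27.3 on stress and 39.9, 24.1 and 27.7 on handled amygdala arrays, and 90.5, 82.6 and 90.5 on stress and 172, 177 and 218 on handled hippocampus arrays. Its regional difference was 0.98 ± 0.20 (adjusted p = 0.0625, limma). Ldb2, a LIM-domain-binding cofactor of transcription, had a stress effect of 0.02 in amygdala and -0.82 in hippocampus, a regional difference of 0.84 ± 0.16 (adjusted p = 0.0625, limma). Over the 11 tested hippocampal field markers the median regional difference was 0.028, and 6 were above 0 (54.5%, against 53.4% of all genes). An unadjusted p under 0.05 was reached by 2, Wfs1 and Pou3f1, both positive (18.2%, against 4.49% positive over all genes). Both had already been picked for their regional difference, so this count is not separate support.

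Ttr encodes transthyretin, a carrier of thyroid hormone and retinol that in the brain is made by the choroid plexus, and it lies on chromosome 18 from 12216684 to 12225972. It was higher in stress than in handled arrays of both regions. Its intensity was 678, 701 and 721 on stress and 558, 495 and 482 on handled amygdala arrays. In hippocampus it was 3408, 3549 and 3274 on stress and 1038, 1128 and 1138 on handled arrays.

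No array of one treatment overlapped the other in either region, and the step was far wider in hippocampus. The stress effect of Ttr was 0.44 ± 0.14 in amygdala, which did not pass (adjusted p = 0.126), and 1.62 ± 0.14 in hippocampus (adjusted p = 4.65e-07, limma). The regional difference was -1.17 ± 0.20 (adjusted p = 0.0280, limma).

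Most other tested genes of the choroid plexus and ependyma, the cell layers that make and line the cerebrospinal fluid, had regional differences of the same sign. Of 17 listed markers 9 were tested. The median of the 9, Ttr included, was -0.39, and 5 had an unadjusted p under 0.05, all negative, against 3.45% negative over all genes. These were Ttr, Sostdc1, Ace, Enpp2 and Igfbp2. The summed intensity of the 9, Ttr included, was 1343 to 1427 on stress and 1260 to 1301 on handled amygdala arrays, and 4570 to 4662 on stress and 2047 to 2230 on handled hippocampus arrays. Ttr alone averaged 3410 in stress and 1102 in handled hippocampus, so most of the hippocampal step in this sum is Ttr itself. In the plot of marker lists by array, where Ttr counts as 1 gene of 9, stress hippocampus arrays also stand above handled ones.

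Sostdc1, a secreted inhibitor of BMP and Wnt signals that is strongly expressed in choroid plexus, gave 40.3, 25.4 and 28.1 on stress and 30.6, 34.1 and 28.0 on handled amygdala arrays. The hippocampus gave 77.3, 79.7 and 87.3 on stress and 30.6, 40.7 and 35.4 on handled arrays. The treatments overlapped in amygdala and were apart in hippocampus, where the effect of 0.92 passed (adjusted p = 0.0307), while the regional difference of -0.92 ± 0.27 did not (adjusted p = 0.309, limma). F5, coagulation factor V, which was too dim to be tested, averaged 33.5 in stress and 23.1 in handled amygdala and 68.6 in stress and 32.8 in handled hippocampus. Other tested members did not follow Ttr closely. Folr1 averaged 62.8 in stress and 52.7 in handled amygdala and 88.7 in stress and 75.9 in handled hippocampus. Calml4 averaged 28.4 in stress and 28.9 in handled amygdala and 129.5 in stress and 123 in handled hippocampus. Foxj1 averaged 38.0 in stress and 67.2 in handled amygdala and 33.0 in stress and 43.0 in handled hippocampus. Not all members had a negative regional difference. Aqp1, the water channel of the choroid plexus, had a regional difference of 0.79 ± 0.45 (adjusted p = 0.680, limma), and Kcnj13, Kl and Otx2, which mark choroid plexus or its lineage, had group means of 23.9 or less. The part of choroid plexus tissue in the Ttr result was not tested. Among 18 genes of retinoic acid and thyroid hormone handling, which also include Ttr, the median was 0.081, with 2 positive (11.1%, against 4.49% of all genes) and 4 negative (22.2%, against 3.45%) at an unadjusted p under 0.05.

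**Figure D2:**
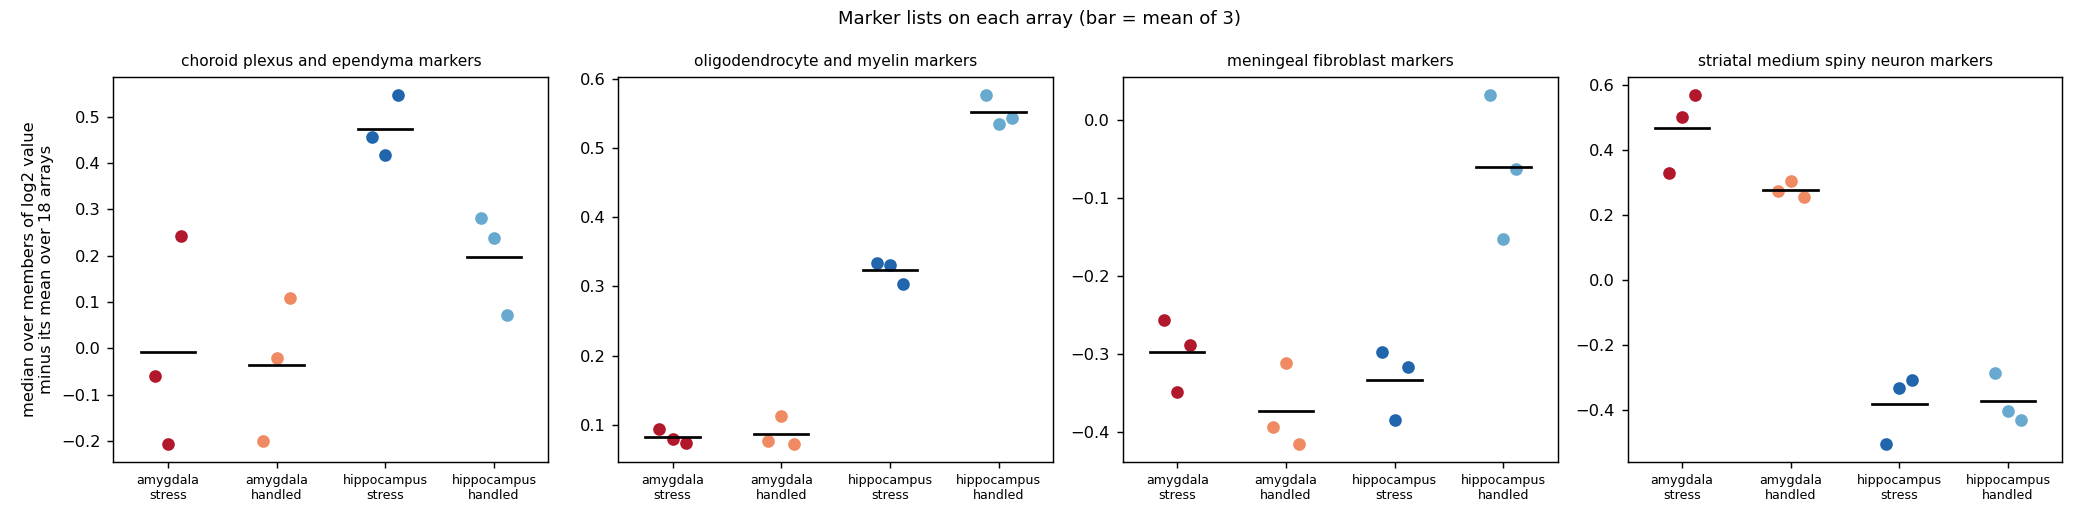
Each point is 1 array and gives the median, over the tested genes of a marker list, of the log2 value minus that gene's mean over all 18 arrays, with a bar at the mean of the 3 arrays. Choroid plexus and ependyma markers are highest in stressed hippocampus, oligodendrocyte and meningeal markers are lower in stressed than in handled hippocampus, and striatal markers are higher in stressed than in handled amygdala.

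In 3 named genes the stress effect was negative in the amygdala and nearer 0 or above it in the hippocampus. Ahi1 encodes jouberin, a protein of the primary cilium that is mutated in Joubert syndrome, and lies on chromosome 1 from 17580859 to 17711775. It gave 170, 142 and 152 on stress and 370, 330 and 413 on handled amygdala arrays. The hippocampus gave 85.0, 108 and 102 on stress and 103, 117 and 129 on handled arrays. The groups were wide apart in amygdala and overlapped in hippocampus. The stress effect of -1.18 ± 0.12 in amygdala (adjusted p = 6.93e-06) stood against -0.21 ± 0.12 in hippocampus (adjusted p = 0.529), a regional difference of -0.97 ± 0.17 (adjusted p = 0.0280, limma). A second Ahi1 probe set, 1394895_at, gave -0.50 ± 0.25, which did not pass (adjusted p = 0.631, limma). Among the 35 tested genes of the primary cilium, where Ahi1 was counted through this brighter probe set, the median was 0.030.

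Lsamp encodes the limbic system-associated membrane protein, an IgLON adhesion molecule of limbic neurons, and spans chromosome 11 from 72053285 to 74223019. It read 486, 630 and 583 on stress and 981, 1079 and 1277 on handled amygdala arrays. It read 578, 545 and 517 on stress and 666, 618 and 604 on handled hippocampus arrays. Stress arrays were below handled arrays in both regions, by a wide margin in amygdala alone. The stress effect was -0.95 ± 0.10 in amygdala (adjusted p = 6.93e-06) and -0.20 ± 0.10 in hippocampus (adjusted p = 0.459), a regional difference of -0.76 ± 0.13 (adjusted p = 0.0324, limma).

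Sv2b, a synaptic vesicle glycoprotein of the SV2 family, lies on chromosome 1 from 138388268 to 138562635. Its probe set gave 1021, 1261 and 1275 on stress and 1688, 1622 and 2015 on handled amygdala arrays, and 1531, 1360 and 1419 on stress and 1190, 1334 and 1416 on handled hippocampus arrays. The amygdala groups were apart and the hippocampus groups overlapped. The regional difference was -0.71 ± 0.12 (adjusted p = 0.0285, limma), made of a stress effect of -0.58 in amygdala (adjusted p = 0.000519, limma) and 0.13 in hippocampus. A second Sv2b probe set, 1369628_at, gave -0.24 ± 0.09 (adjusted p = 0.474, limma).

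The next probe set in order of p was Hpcal4, a neuronal calcium sensor of the visinin-like family, with -0.95 ± 0.18 (adjusted p = 0.0555, limma). It read 354, 510 and 492 on stress and 916, 1012 and 1191 on handled amygdala arrays, and 387, 304 and 400 on stress and 466, 420 and 402 on handled hippocampus arrays. Stress arrays lay below handled arrays in both regions, though narrowly in hippocampus. Another Hpcal4 probe set, 1379907_at, which was brighter, gave a regional difference of -0.04, and 1387639_at gave -0.42.

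Scn4b, the beta-4 subunit of voltage-gated sodium channels, which is abundant in striatal medium spiny neurons, lies on chromosome 8 from 54343873 to 54359046. It read 154, 159 and 181 on stress and 84.4, 64.1 and 83.0 on handled amygdala arrays. The hippocampus gave 213, 250 and 221 on stress and 225, 217 and 217 on handled arrays. The amygdala groups were apart and those of the hippocampus overlapped. The stress effect of 0.96 ± 0.12 in amygdala (adjusted p = 7.47e-05) stood against 0.05 ± 0.12 in hippocampus (adjusted p = 0.931), and the regional difference of 0.91 ± 0.17 had an adjusted p of 0.0498 (limma).

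Most other markers of striatal medium spiny neurons had a positive regional difference. The median of the 15 tested was 0.34, 14 were above 0, and 7 had an unadjusted p under 0.05, all positive, against 4.49% positive over all genes (7.94% in either direction). Their summed intensity was 6480 to 6896 on stress and 5122 to 5476 on handled amygdala arrays, and 2767 to 3118 on stress and 3038 to 3168 on handled hippocampus arrays. Ppp1r1b, which encodes the phosphatase inhibitor DARPP-32 of dopamine-responsive neurons, read 560, 689 and 678 on stress and 379, 442 and 419 on handled amygdala arrays, with no overlap, and 158, 235 and 214 on stress and 225, 217 and 190 on handled hippocampus arrays. Its regional difference of 0.68 ± 0.16 did not pass (adjusted p = 0.145, limma). Scn4b is 1 of this list, and the part of striatal or striatal-type cells in its result was not tested.

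The RefSeq promoter windows of 4 of these genes are shown, 1 for each pattern of response, from 250 bases before to 50 after the annotated start on GRCr8. Capitals mark matches, on either strand, to the glucocorticoid response element hexamer TGTTCT, the cyclic AMP response element core TGACG and the E-box CACGTG.
Wfs1, chr14:78034955-78035254, + strand: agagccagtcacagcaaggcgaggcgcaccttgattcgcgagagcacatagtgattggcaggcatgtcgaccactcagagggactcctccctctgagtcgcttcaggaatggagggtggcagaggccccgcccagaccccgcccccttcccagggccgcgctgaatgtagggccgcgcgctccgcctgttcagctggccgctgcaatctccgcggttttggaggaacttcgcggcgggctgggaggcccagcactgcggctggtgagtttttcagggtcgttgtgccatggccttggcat
Ttr, chr18:12218508-12218807, + strand: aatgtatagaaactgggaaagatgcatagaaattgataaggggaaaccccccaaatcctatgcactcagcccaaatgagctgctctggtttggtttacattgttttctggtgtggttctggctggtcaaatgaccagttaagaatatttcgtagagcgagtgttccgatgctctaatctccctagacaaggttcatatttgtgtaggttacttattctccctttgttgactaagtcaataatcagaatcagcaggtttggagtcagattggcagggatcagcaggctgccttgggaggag
Ahi1, chr1:17581781-17582080, + strand: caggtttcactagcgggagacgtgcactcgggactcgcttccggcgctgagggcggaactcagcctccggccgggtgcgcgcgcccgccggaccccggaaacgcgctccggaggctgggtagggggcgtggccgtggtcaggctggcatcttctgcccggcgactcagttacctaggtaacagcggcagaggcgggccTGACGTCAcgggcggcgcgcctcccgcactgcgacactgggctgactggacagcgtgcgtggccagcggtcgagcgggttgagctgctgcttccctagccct
Scn4b, chr8:54343623-54343922, + strand: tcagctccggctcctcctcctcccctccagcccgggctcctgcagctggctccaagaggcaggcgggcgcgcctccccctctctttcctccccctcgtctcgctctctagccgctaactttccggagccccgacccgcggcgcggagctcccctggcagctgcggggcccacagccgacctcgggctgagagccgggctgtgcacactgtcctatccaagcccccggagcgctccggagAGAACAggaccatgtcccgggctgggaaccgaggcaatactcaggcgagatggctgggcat
Among all 33469 RefSeq windows of this length, TGTTCT occurred in 20.7%, TGACG in 21.2% and CACGTG in 6.42%. The Ahi1 window held TGACG on each strand in 1 overlapping run, with first bases 52 and 49 bases before the start, and the Scn4b window held TGTTCT on the opposite strand from 11 bases before the start. The Wfs1 and Ttr windows held none of these letters. A match describes the sequence and is not evidence of a site in use. Promoters were found for 6 of the 7 named genes, Gh1 being the other.

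Among probe sets that passed in 1 region, stress effects of the same sign in the other region were far more frequent than opposed ones. The amygdala and hippocampus contrasts have no array in common. Of the 362 probe sets that fell in the amygdala (1.94% of those tested), 321 (88.7%) were also below 0 in the hippocampus, where 49.2% of all probe sets were, with a median of -0.23 against -0.61 in the amygdala. Of the 85 that rose in the amygdala (0.456%), 61 (71.8%) were above 0 in the hippocampus, where 50.8% of all probe sets were, with a median of 0.090. Of the 48 that fell in the hippocampus (0.258%), 40 (83.3%) were below 0 in the amygdala, where 47.8% of all probe sets were, with a median of -0.32. Of the 19 that rose in the hippocampus (0.102%), 18 (94.7%) were above 0 in the amygdala, where 52.2% of all probe sets were. Across all 18625 probe sets, which are not independent replicates, the Pearson correlation of the stress effects was 0.217 and the Spearman correlation 0.191. The hexokinase 3′ minus 5′ difference was also higher in stress than in handled arrays of both regions, by 0.40 in amygdala and 0.15 in hippocampus (log2). Its part in this agreement of signs was not tested. The counts for single regions were not repeated under the alternative settings given below.

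In both regions 28 probe sets passed, which is 6.26% of those that passed in amygdala and 41.8% of those in hippocampus. Of these, 22 fell in both, 5 rose in both, and 1, Gh1, had opposite signs. Pnma8b, a member of a gene family named for paraneoplastic antigens, read 329, 317 and 308 on stress and 727, 792 and 1068 on handled amygdala arrays, and 266, 184 and 210 on stress and 315, 424 and 382 on handled hippocampus arrays. Its stress effects of -1.38 and -0.73 both passed, and the regional difference of -0.65 ± 0.21 did not (adjusted p = 0.365, limma). A second Pnma8b probe set had stress effects of -0.42 in amygdala and 0.05 in hippocampus, of which neither passed.

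Dnmt3a, a DNA methyltransferase that sets new methylation, read 24.1, 35.5 and 37.96 on stress and 94.2, 94.9 and 112 on handled amygdala arrays, and 65.8, 32.8 and 46.5 on stress and 93.8, 92.3 and 90.3 on handled hippocampus arrays. The treatments were apart in both regions, with effects of -1.27 and -0.78 and a regional difference of -0.49 ± 0.24 (adjusted p = 0.633, limma). In a second Dnmt3a probe set the effects were -0.58 and -0.55, and neither passed. Dbp, an output transcription factor of the circadian clock, rose in both, by 0.36 in amygdala and 0.47 in hippocampus, and its regional difference was -0.11 ± 0.13 (adjusted p = 0.884, limma). Cdc73, a subunit of the PAF1 transcription elongation complex, rose by 0.58 in amygdala and 0.56 in hippocampus, and its regional difference was 0.02 ± 0.14 (adjusted p = 0.986, limma).

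Hbb, a beta-globin chain of haemoglobin, fell in both regions. It read 1800, 1489 and 1529 on stress and 2031, 2258 and 2104 on handled amygdala arrays, and 1278, 1067 and 1092 on stress and 1989, 1968 and 2163 on handled hippocampus arrays. The stress effects of -0.41 and -0.83 passed, and their difference of 0.42 ± 0.10 did not (adjusted p = 0.181, limma).

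**Figure D3:**
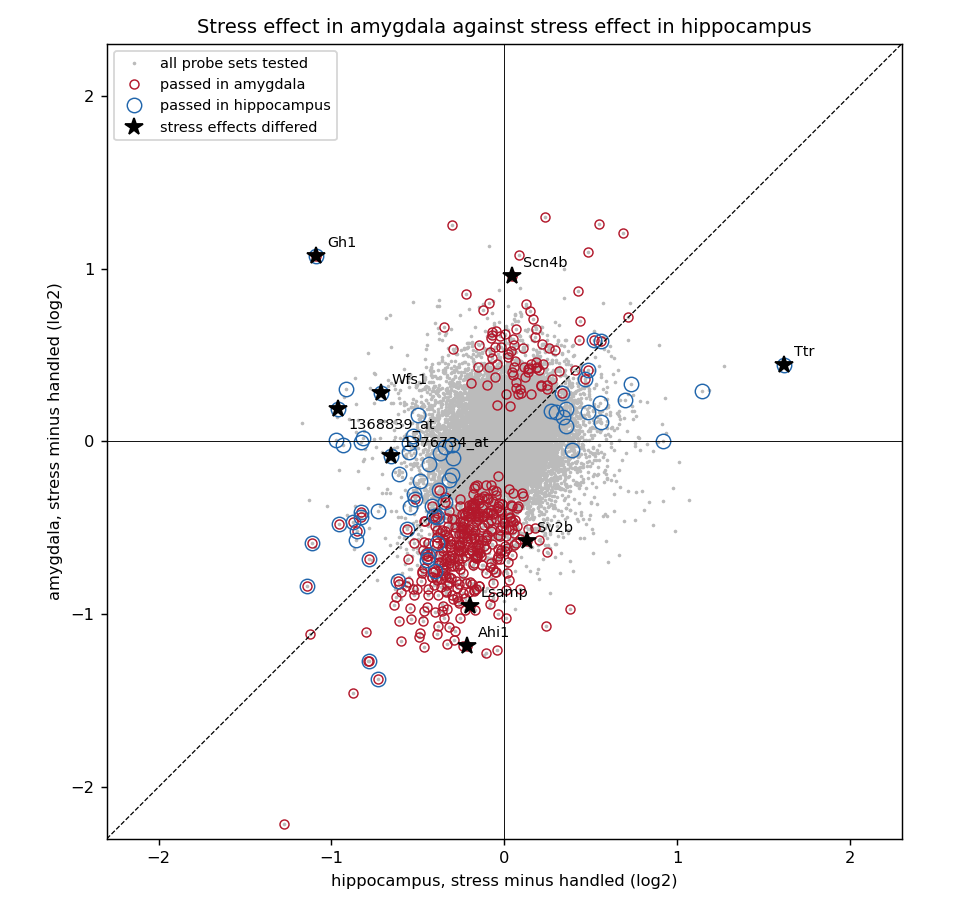
Stress effect in amygdala (vertical axis, log2) against stress effect in hippocampus (horizontal axis, log2) for the 18625 probe sets tested, with equal effects on the dashed line, small red rings for the 447 that passed in amygdala, larger blue rings for the 67 that passed in hippocampus, and stars for the 9 whose effects differed. Most red rings lie below 0 in both regions, and Gh1 stands alone at the upper left with both rings.

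The 8 genes of the stress response chosen for reporting showed no regional difference past the threshold. Nr3c1, the glucocorticoid receptor, read 426, 403 and 358 on stress and 371, 361 and 334 on handled amygdala arrays, and 379, 436 and 342 on stress and 380, 356 and 436 on handled hippocampus arrays. Its regional difference was 0.16 ± 0.13, with a 95% interval from -0.10 to 0.43 (adjusted p = 0.792, limma). Nr3c2, the mineralocorticoid receptor, read 265 to 284 on stress and 252 to 286 on handled amygdala arrays and 1076 to 1091 on stress and 1020 to 1211 on handled hippocampus arrays, overlapping in both. It had a regional difference of 0.05 ± 0.11, with an interval from -0.17 to 0.27.

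Among targets of the glucocorticoid receptor, Fkbp5, a co-chaperone that lowers the receptor's affinity for hormone, gave 0.32 ± 0.18 from its brighter probe set and -0.23 ± 0.26 from the other. Sgk1, a kinase induced by corticosteroids, gave -0.01 ± 0.10, and Tsc22d3, which encodes the glucocorticoid-induced leucine zipper, gave 0.12 ± 0.12. The 95% interval of Fkbp5 ran from -0.05 to 0.68 for the brighter probe set and from -0.76 to 0.31 for the other, and those of Sgk1 and Tsc22d3 left room for sizes up to 0.21 and 0.36. Crh, corticotropin-releasing hormone, gave -0.29 ± 0.27 and was dim, at group means of 31.9 to 40.5. Bdnf, brain-derived neurotrophic factor, gave -0.30 ± 0.16 from its brighter probe set.

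Fos, an immediate early gene of neuronal activity, read 51.5, 51.5 and 54.2 on stress and 90.4, 74.6 and 92.8 on handled amygdala arrays, and 66.9, 31.6 and 46.4 on stress and 52.1, 36.7 and 58.7 on handled hippocampus arrays. The treatments were apart in amygdala and overlapped in hippocampus. The regional difference was -0.53 ± 0.25, with an unadjusted p of 0.0450 and an adjusted p of 0.604 (limma). Over the 21 tested corticosteroid receptor and target genes the median was -0.013 and 1 had an unadjusted p under 0.05 (4.76%). Over the 23 immediate early genes the median was -0.056 and 2 did (8.7%). Both shares are near the 7.94% of all genes.

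In the cell-type lists described next, no member had a regional difference that passed. The 19 tested oligodendrocyte and myelin genes had a median of 0.17, 17 of them were above 0 (89.5%, against 53.4% of all genes), and 7 had an unadjusted p under 0.05, all positive, against 4.49% positive over all genes. Their summed intensity was 20341 to 21684 on stress and 21046 to 22147 on handled amygdala arrays, and 23077 to 25560 on stress and 27074 to 29477 on handled hippocampus arrays, where the treatments did not overlap. Mag, a myelin-associated adhesion protein, read 331, 377 and 282 on stress and 249, 323 and 283 on handled amygdala arrays, and 335, 400 and 402 on stress and 497, 482 and 495 on handled hippocampus arrays. Its regional difference was 0.56 ± 0.14 (adjusted p = 0.203, limma). Mbp, myelin basic protein, read 7221 to 8681 on stress and 8095 to 10390 on handled hippocampus arrays, with overlap. The regional difference of Mbp was 0.13 ± 0.10 (adjusted p = 0.797, limma).

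The 12 tested markers of meningeal fibroblasts, the cells of the brain's coverings, had a median of 0.33, 9 were above 0 and 3 below, and 5 had an unadjusted p under 0.05, all positive, against 4.49% positive over all genes. Their summed intensity was 1508 to 1620 on stress and 1430 to 1566 on handled amygdala arrays, and 1972 to 1991 on stress and 2308 to 2599 on handled hippocampus arrays. Ptgds, a prostaglandin D synthase abundant in the meninges, read 666, 734 and 678 on stress and 683, 734 and 709 on handled amygdala arrays, and 1214, 1181 and 1217 on stress and 1624, 1446 and 1536 on handled hippocampus arrays. Most of the hippocampal sum of the 12 markers, and of its step between treatments, is thus Ptgds itself. Ptgds fell in hippocampus by 0.35 (adjusted p = 0.00538), and its regional difference was 0.31 ± 0.08 (adjusted p = 0.222, limma). The fall was larger in cortex, where the stress effect of Ptgds was -1.12. The median stress effect of the 12 meningeal markers was -0.96 in cortex, -0.34 in hippocampus and 0.08 in amygdala. These hippocampal shifts of choroid plexus, myelin and meningeal genes lay beside the results for Ttr, Wfs1 and 1368839_at, and their part in those results was not tested. Astrocyte markers had a median of 0.014, microglial and complement markers -0.066 and endothelial and mural cell markers 0.17.

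In the lists of neuronal signalling genes, counted with the brightest probe set of each gene, Scn4b was the one gene whose regional difference passed, since Sv2b was counted there through 1369628_at. Of the 19 glutamate receptor genes tested, 3 had an unadjusted p under 0.05, all negative, against 3.45% negative over all genes, and the median was -0.091. Gria1, an AMPA receptor subunit, read 526, 581 and 432 on stress and 974, 908 and 1313 on handled amygdala arrays, with no overlap, and 658, 603 and 619 on stress and 651, 773 and 846 on handled hippocampus arrays, with overlap. It fell by 1.02 in amygdala (adjusted p = 5.84e-05), and its regional difference was -0.76 ± 0.18 (adjusted p = 0.141, limma). Grin2a and Grm5, an NMDA receptor subunit and a metabotropic receptor, each gave -0.50.

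Genes of the synaptic vesicle and its fusion machinery had a median of -0.084, with 1 of 28 positive (3.57%, against 4.49% of all genes) and 5 negative (17.9%, against 3.45%) at an unadjusted p under 0.05. The negative ones were Sv2a, Sv2b, Cplx2, Rims1 and Syt4, from -0.19 to -0.43, and the positive one was Rab3c at 0.61. Postsynaptic scaffold, kinase and adhesion genes had a median of -0.083, with 1 of 34 positive (2.94%) and 4 negative (11.8%), to be read against the same shares of all genes. The 18 neuropeptide precursors had a median of 0.19, with 5 positive (27.8%) and 1 negative (5.56%), against those same shares. Npy, neuropeptide Y, read 827, 923 and 774 on stress and 636, 654 and 626 on handled amygdala arrays, with no overlap, and 440, 519 and 487 on stress and 494, 422 and 477 on handled hippocampus arrays, with overlap. Its regional difference was 0.33 ± 0.12 (adjusted p = 0.440, limma). Pnoc, the precursor of nociceptin, gave 0.88 ± 0.27 (adjusted p = 0.325, limma).

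Receptors for serotonin had members of both signs. Htr2c, a receptor also abundant in choroid plexus, read 973, 1038 and 933 on stress and 802, 838 and 877 on handled amygdala arrays, and 152, 211 and 150 on stress and 114, 99.2 and 117 on handled hippocampus arrays. The treatments were apart in both regions, and the regional difference was -0.33 ± 0.13 (adjusted p = 0.521, limma). Among the 20 clock genes Npas2, a partner of the clock's core activator, gave 0.53 ± 0.13 (adjusted p = 0.151, limma), and the median was -0.10. The 31 tested cytosolic ribosomal protein genes had a median of 0.031, and none had an unadjusted p under 0.05, against 7.94% of all genes. The 52 respiratory chain genes had a median of 0.066, with 40 above 0 (76.9%, against 53.4% of all genes) and 7 positive at an unadjusted p under 0.05 (13.5%, against 4.49%).

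**Figure D4:**
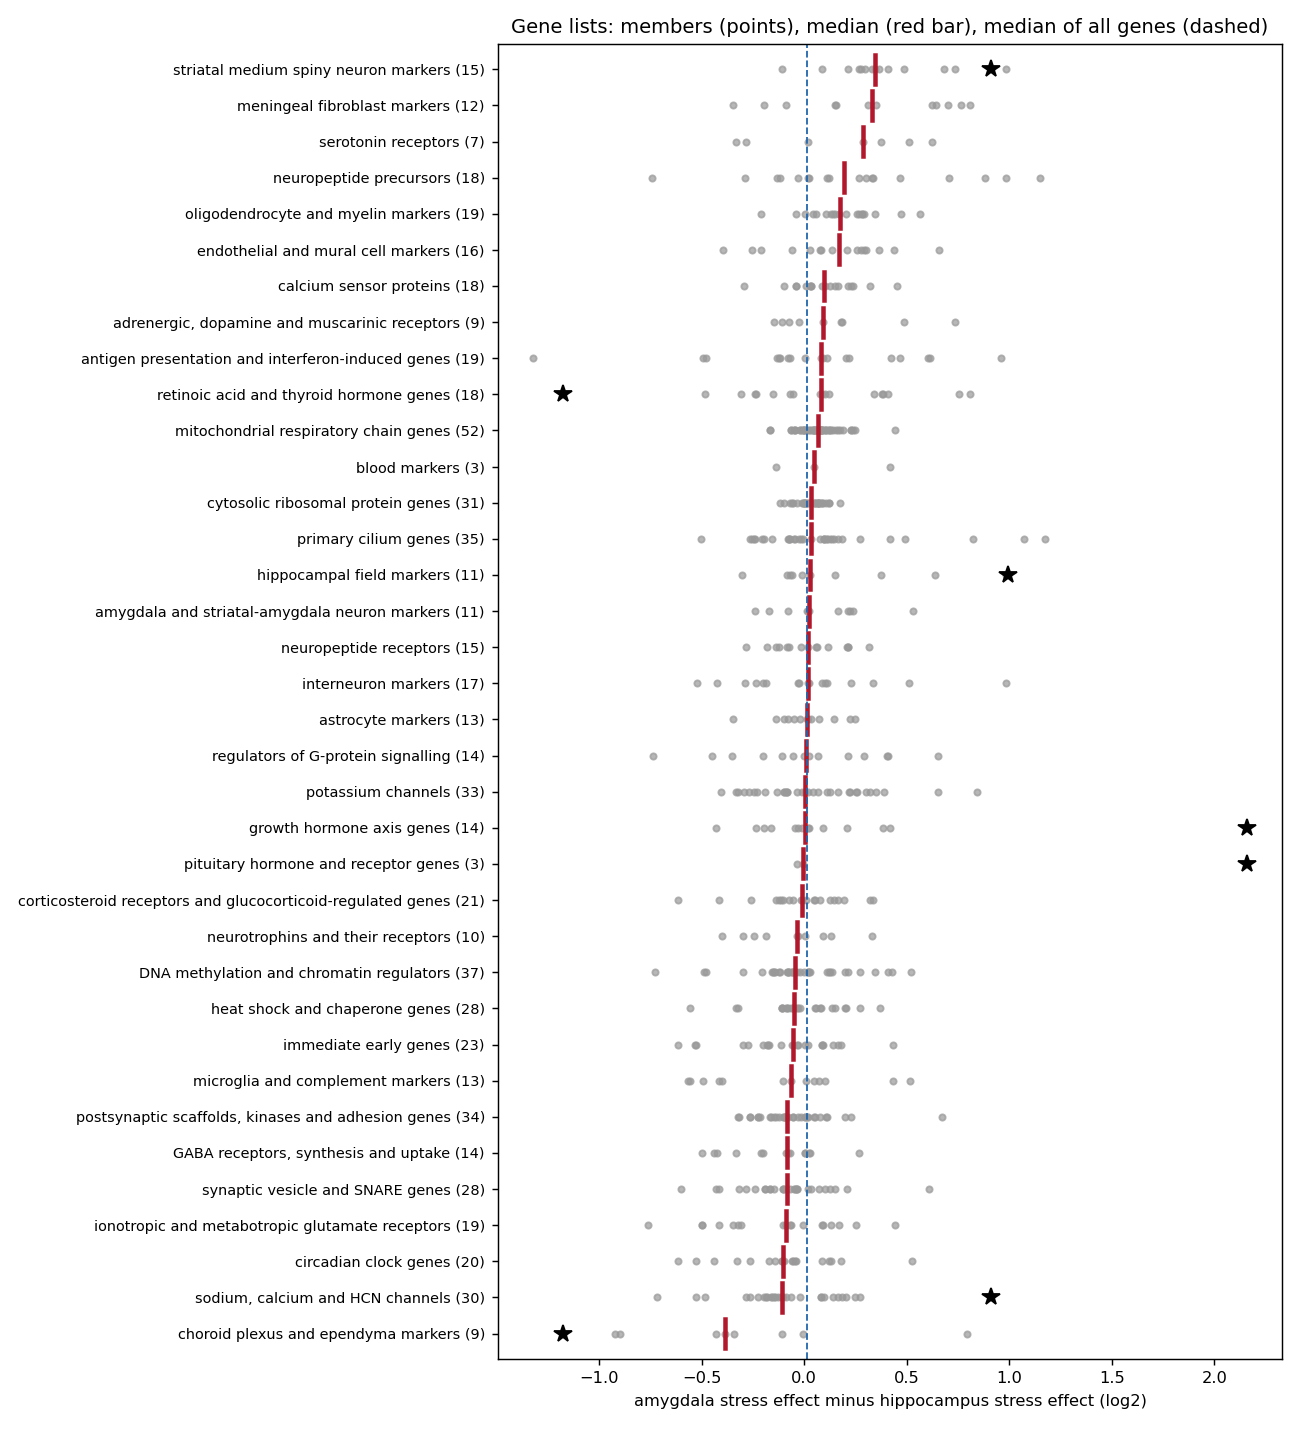
Regional difference (log2) of every tested member of the 36 gene lists, 1 point per gene, with the number of tested genes in brackets, a red bar at the list's median, a dashed line at the median of all 10256 genes (0.015) and stars for genes that passed. Choroid plexus markers have the lowest median at -0.39 and striatal medium spiny neuron markers the highest at 0.34.

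The cortex gave a further setting for the 9 probe sets, although it shares the amygdala or hippocampus arrays with the regional difference. Differences of stress effects passed for 24 probe sets between amygdala and cortex (0.129%) and for 16 between hippocampus and cortex (0.0859%). Of the 9, the amygdala minus cortex difference passed for Gh1, with 1.28 (adjusted p = 0.0261), Ahi1, with -1.15 (adjusted p = 0.00233), and Lsamp, with -0.96 (adjusted p = 0.00168, limma). The hippocampus minus cortex difference passed for 1368839_at, with -0.86 (adjusted p = 3.80e-05), 1376734_at, with -0.91 (adjusted p = 7.36e-05), Wfs1, with -0.71 (adjusted p = 0.0325), and Ttr, with 1.67 (adjusted p = 7.51e-05, limma). Neither passed for Scn4b and Sv2b, whose amygdala minus cortex differences of 0.81 and -0.58 both had an adjusted p of 0.0629 (limma).

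How far the 9 calls depended on the processing differed by gene. Over 22 alternative settings, 1368839_at passed in all 22, Wfs1 in 21, and Gh1 in all 21 in which it was bright enough to be tested. Sv2b passed in 13, Ahi1 in 12, Lsamp in 10, Ttr in 10, 1376734_at in 6 and Scn4b in 5. None of the 9 turned its sign in any of these settings. None of the 6 from Sv2b to Scn4b passed when amygdala handled 3, hippocampus stress 3, hippocampus handled 1 or hippocampus handled 2 was left out, each alone. With the hexokinase 3′ minus 5′ difference as a covariate, 2 of the 9 passed, 1368839_at and Gh1, and Wfs1 had an adjusted p of 0.0550 (limma).

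**Figure D5:**
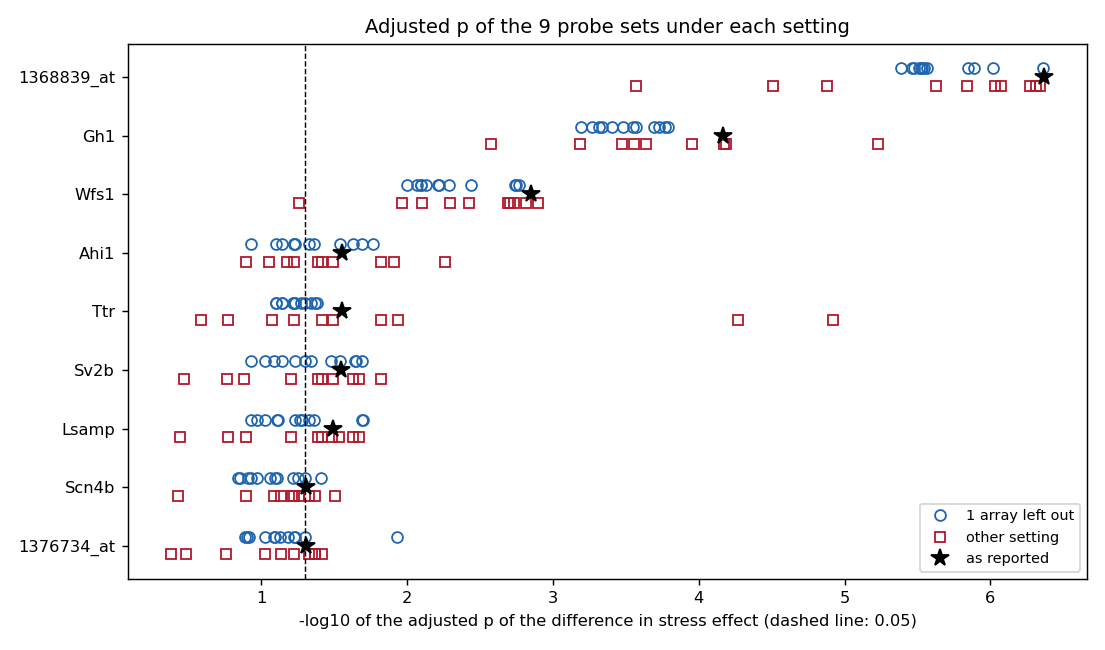
Adjusted p of the regional difference, as -log10 on the horizontal axis, for the 9 probe sets as reported (stars), with 1 array left out (circles) and under other settings (squares), with the threshold of 0.05 as a dashed line. All points of 1368839_at and Gh1 lie right of the line, whereas those of the other probe sets lie on both sides of it.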

How the data were processed

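Total RNA of 3 rat brain regions was measured on 18 arrays, 3 for each of 6 groups. The deposited values are linear intensities, 1 per probe set and array, and the values themselves show that the authors had scaled every array to a mean of about 150 after trimming 2% from each tail. Which software summarised the probes is not given in the sources used here. Such scaling hides a change shared by most bright transcripts. No detection calls, probe-level values or scan dates were used, so no processing batch could be tested, and the number of arrays limits the precision.

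Of 31099 probe sets, 57 controls were left out. By the platform annotation, with symbols updated from a RefSeq table, a single gene symbol was given to 20832 probe sets, several to 436 and none to 9831. Values were taken as log2 of intensity plus 16, so the changes of dim transcripts are understated. Probe sets whose mean over all arrays was at or above the 40th percentile (an intensity of about 30.1) were tested. Group means were fitted over 18 arrays with limma 3.58.1 in R 4.3.3 (variance trend, 12 residual and 10.2 prior degrees of freedom), and two-sided p-values were adjusted by Benjamini-Hochberg over 18625 probe sets. Errors beside log2 values are standard errors from that fit with n = 3 arrays per group. No single gene was tested by permutation.

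The comparison, the 36 gene lists and the rule for named genes were chosen with earlier results of these data known. The rule names up to 12 genes per direction that passed with a group mean of at least 64, list members that passed, genes that passed in both regions with opposite signs, 8 stress genes and members of cell marker lists that moved. Genes that did not pass and stand outside the 8 stress genes were picked after their values were seen, and so were the examples shown from marker lists. A gene is represented in list counts by its probe set of highest mean. Alternatives covered the filter, the offset, the scaling, the arrays fitted, the variance trend, a replicate block, a covariate for RNA length and leaving out each of the 12 arrays. Promoter sequences and gene positions are from RefSeq, GRCr8, and probe sets were not placed on the genome.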

Additional observations from a re-analysis of the deposited data

Results flagged for a closer look

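All 9 probe sets listed here had stress effects that differed between amygdala and hippocampus by the test of the difference itself. The amygdala stress effect exceeded the hippocampus stress effect by 2.16 for Gh1, 1.15 for 1368839_at, 0.99 for Wfs1, 0.91 for Scn4b and 0.57 for 1376734_at (log2). It fell below the hippocampus stress effect for Ttr, with a difference of -1.17, for Ahi1 with -0.97, for Lsamp with -0.76 and for Sv2b with -0.71.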

How the results depend on the processing

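The number of regional differences that passed was 9 (5 positive, 4 negative). It was 3 (3 and 0) without a filter, 3 (3 and 0) without a variance trend, 16 (7 and 9) with a filter at the 60th percentile, 15 (3 and 12) after median centring, 4 (3 and 1) with the 12 amygdala and hippocampus arrays alone, and 2 (2 and 0) with the hexokinase covariate. Of unadjusted p under 0.05 there were 2448, 1473 and 1292 without a filter, without a variance trend and with the hexokinase covariate (limma), against 1502 as reported. It stayed at 9 with offsets of 4 and 64 and was 11 after quantile normalization. With 1 array left out it ran from 3 to 18, the positive ones from 3 to 7 and the negative ones from 0 to 11. Moves over 1.5 times came without amygdala handled 3 (3), hippocampus stress 1 (4), 2 (18) and 3 (3), and hippocampus handled 1 (4), 2 (3) and 3 (5). A check of 18 same-numbered pairs of arrays cannot tell whether array numbers pair samples, since most pairs set stress against handled arrays. Correlations of deviations from group means ran from -0.044 upward, and 6 pairs were best matched to their own number. The 1 correlation over 0.1 was between amygdala stress 3 and hippocampus stress 3. With the array number as a replicate block 9 passed, 8 of them from the 9. Signs turned for Nr3c2 (-0.012 after median centring) and Sgk1 (0.024 after quantile normalization). With 1 array left out, Nr3c2 ran from -0.00888 to 0.11 and Sgk1 from -0.055 to 0.026. The causes were not tested. Of 792 list medians over 22 alternatives, 88 changed sign and 73 moved by more than the spread between arrays. None of these sign changes was for the choroid plexus, striatal, oligodendrocyte or meningeal lists, but the oligodendrocyte median moved that far in 9 settings (from 0.11 to 0.22 over all 22, against 0.17) and the meningeal median in 3.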

Other observations

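Several genes that the report does not describe had regional differences just short of the threshold, and they are named here after their values were seen. Reln, the extracellular protein reelin made by interneurons, averaged 207 in stress and 293 in handled amygdala and 530 in stress and 511 in handled hippocampus, with a regional difference of -0.52 ± 0.10 (adjusted p = 0.0625, limma). Ccn3, a secreted matricellular protein, averaged 537 in stress and 541 in handled amygdala and 213 in stress and 319 in handled hippocampus, with 0.54 ± 0.11 (adjusted p = 0.0625, limma). Eif3a, a subunit of a translation initiation factor, averaged 89.2 in stress and 198 in handled amygdala and 113 in stress and 112 in handled hippocampus, with -1.03 ± 0.21 (adjusted p = 0.0782, limma).

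Among the 35 tested genes of the primary cilium, 3 had an unadjusted p under 0.05 (8.57%, near the 7.94% of all genes). These were Gas8, Gpr161 and Mchr1, all with a positive regional difference, and none passed after adjustment. Gas8, a component of the regulatory complex of motile cilia, averaged 83.0 in stress and 38.5 in handled amygdala and 42.8 in stress and 52.5 in handled hippocampus. Gpr161, a receptor of the ciliary membrane, averaged 128 in stress and 131 in handled amygdala and 181 in stress and 328 in handled hippocampus.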
